A study of Mus musculus with 12 samples.

Results

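The interaction of ethanol and mephedrone was measured in the anterior striatum of male adolescents of the outbred Swiss CD-1 stock of mice, as the departure of the combined treatment from the sum of the 2 single treatments. For every probe set it is the combination mean minus the mephedrone mean, less the ethanol mean minus the saline mean, on the log2 scale. It can equally be read as the mephedrone effect with ethanol less the mephedrone effect without it. The contrast takes its arrays from the source labels and uses 12 of 12 arrays, 3 each from mice given mephedrone with ethanol (called the combination), mephedrone alone, ethanol alone or saline.

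All groups went through a 10-day conditioned place preference procedure, a test of reward in which an animal learns to link 1 compartment with a drug, and drugs were given 15 minutes before the animal entered that compartment. Total RNA was hybridised to Affymetrix whole-transcript arrays. The labels give no dose, hour of collection or array batch, nor whether the arrays come from different animals, so the p-values reflect the spread among these samples alone, and that spread may be technical. Every value below is a log2 difference from the median of its probe set over the 12 arrays, so that it shows how arrays differ and not how abundant a transcript is, and 1 unit is a doubling.

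Mephedrone is a synthetic cathinone, a stimulant that releases dopamine and serotonin from nerve terminals through their transporters. Ethanol acts on several targets, among them GABA-A receptors, which it potentiates, and NMDA-type glutamate receptors, which it inhibits. The striatum holds mostly inhibitory projection neurons that receive dopamine, and both drugs raise dopamine there. If the drugs acted independently on the log2 scale, the ethanol effect would be the same with and without mephedrone and the interaction would be 0.

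None of the 28853 probe sets passed an adjusted p of 0.05 for the interaction in limma (0% called), and the smallest adjusted p was 0.786. At an unadjusted p under 0.05, 357 probe sets lay higher in the combination than the additive value (1.24%) and 634 lay lower (2.2%). Together these are 991 probe sets (3.43%), below the 1443 that the threshold alone would give if no probe set differed. The words higher and lower below refer to this contrast, and no gene named is said to have passed the adjusted test.

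The precision of the contrast limits what it can show. The median standard error of an interaction was 0.0747, against 0.0528 for a difference between 2 groups, because the interaction carries the error of all 4 means. A 95% confidence interval reached 0.164 to either side at the median probe set. Interactions of at least 0.5 in size were measured for 82 probe sets and of at least 1 for 8, none of them past the adjusted test. The largest belonged to Snord53, a small nucleolar RNA named here after its values were seen, at -2.60 (SE 0.703, unadjusted p = 0.00349). Its values were -0.77, -0.58 and -0.72 with the combination, 0.58, 0.80 and -0.61 with mephedrone, 1.62, 1.00 and 1.81 with ethanol, and 1.14, -0.92 and -0.71 with saline. The combination arrays lay together near the bottom, the ethanol arrays and 1 saline array lay highest, and the mephedrone and saline arrays were split between high and low.

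Across all 28853 probe sets, the ethanol effect with mephedrone and that without it, which share no array, had a Pearson correlation of 0.118. The mephedrone effect with ethanol and that without it correlated at 0.386. These are descriptions across probe sets, which are not independent. Without combination replicate 3 and ethanol replicate 1 the values were 0.119 and 0.469. Those 2 arrays stood apart from the rest, with an SD over all probe sets of 0.169 and 0.127, against 0.068 to 0.102 in the other 10, and results are given below with and without them where they matter.

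Most probe sets at an unadjusted p under 0.05 had ethanol effects of opposite sign in the presence and absence of mephedrone, 341 of the 357 higher ones (95.5%) and 590 of the 634 lower ones (93.1%). The interaction is the difference between those effects, so its own size favours opposite signs. Among the higher probe sets the group mean farthest from the other 3 was that of the combination in 158 (44.3%) and that of ethanol in 86 (24.1%), against 31.4% and 22.6% of all probe sets. The lower probe sets had combination farthest in 150 (23.7%), ethanol in 204 (32.2%) and saline in 186 (29.3%). Over all probe sets those shares were 31.4%, 22.6% and 26.7%. Without both arrays that stand apart, 509 probe sets were higher and 803 lower, and ethanol was farthest in 224 (44.0%) and 365 (45.5%) of them, against 31.9% of all probe sets. The strictest form of the pattern, with every combination and saline array above every mephedrone and ethanol array, was seen in 11 probe sets (0.0381%), and its mirror image in 13 (0.0451%). With 1 value per symbol these shares were 0.0401% and 0.0602% of the 19938 genes.

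Lsm4, which encodes a subunit of the ring that binds U6 RNA in the spliceosome, had the smallest unadjusted p of the named genes. It was singled out after its values were seen, since its interaction of 0.29 lies under the size of 0.3 asked of named genes. Its values were 0.056, 0.0091 and 0.084 with the combination, -0.032, -0.0069 and -0.026 with mephedrone, -0.21, -0.17 and -0.18 with ethanol, and 0.051, 0.030 and 0.0069 with saline. The ethanol arrays lay well below all 9 others, and the combination and saline arrays shared 1 range above the mephedrone arrays. The ethanol effect was thus 0.071 with mephedrone and -0.22 without it, and the interaction had SE 0.044 (unadjusted p = 4.06e-05, adjusted p = 0.786 in limma).

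**Figure D1:**
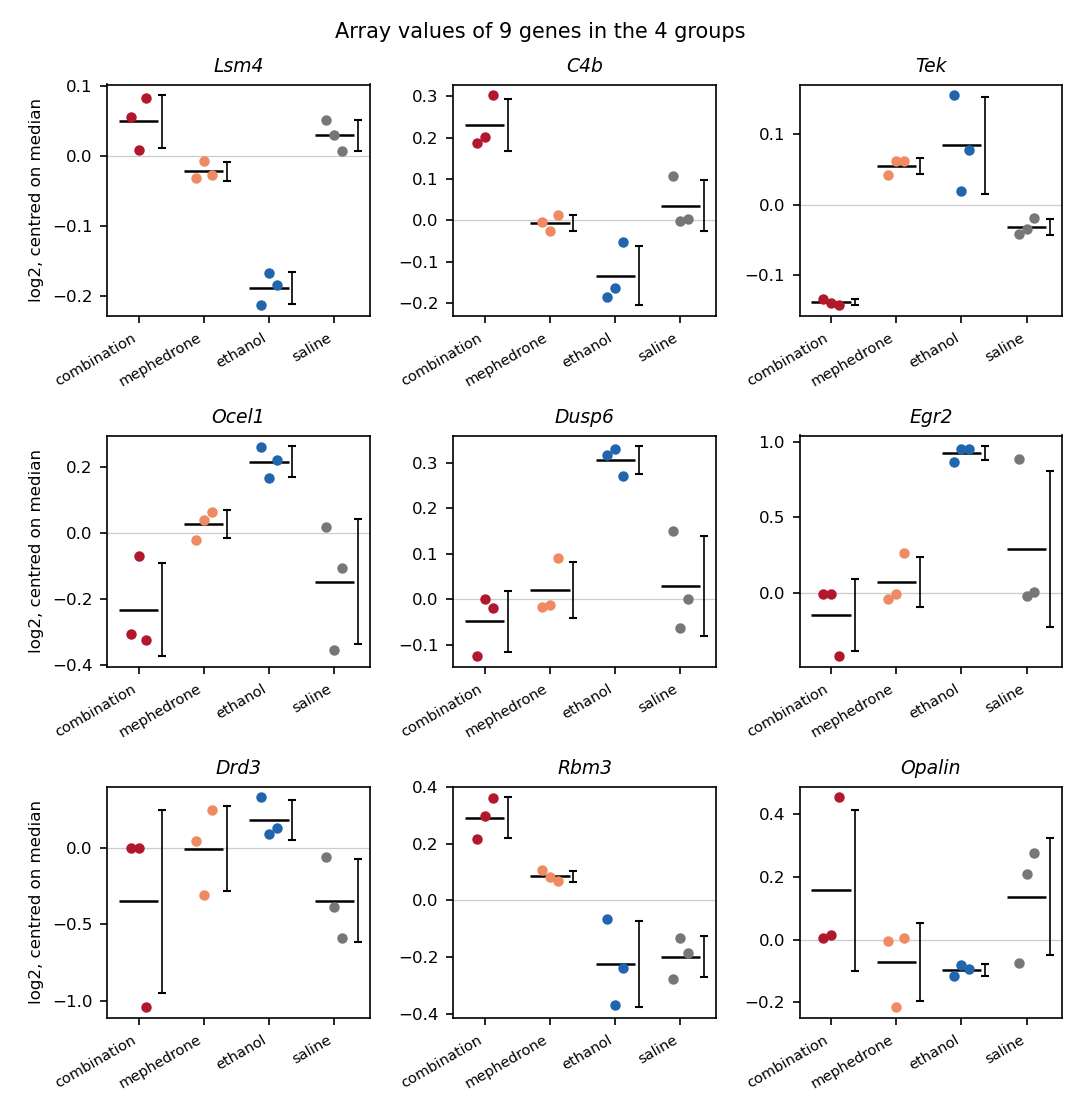
Array values of 9 genes, each dot 1 array (log2, centred on the median of the 12 arrays), with the group mean as a line and the SD as a bar, for combination, mephedrone, ethanol and saline from left to right (3 arrays each). In Lsm4 and Dusp6 the ethanol arrays stand apart from all others, in C4b and Tek the combination arrays do, and in Drd3 and Opalin combination replicate 3 lies far from the other 2 combination arrays.

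Genes of blood vessels were among those with the smallest p on the lower side. Tek encodes TIE2, the angiopoietin receptor of endothelial cells. Its values were -0.13, -0.14 and -0.14 with the combination, 0.042, 0.061 and 0.062 with mephedrone, 0.15, 0.019 and 0.077 with ethanol, and -0.042, -0.034 and -0.019 with saline. All combination and saline arrays lay below all mephedrone and ethanol arrays, with the combination lowest. The interaction was -0.31 (SE 0.050, 95% confidence interval -0.42 to -0.20, unadjusted p = 6.96e-05, adjusted p = 0.786 in limma), from an ethanol effect of -0.19 with mephedrone and 0.12 without it. Emcn, which encodes the endothelial sialomucin endomucin, was at -0.35 (SE 0.099, unadjusted p = 0.00447), with means of -0.16 ± 0.048 with the combination, 0.013 ± 0.085 with mephedrone, 0.15 ± 0.15 with ethanol and -0.029 ± 0.056 with saline (SD, n = 3 each).

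Most endothelial markers lay on the same side. Of 13 measured markers, which include Tek and Emcn, 12 were below 0. In limma 5 had an unadjusted p under 0.05, all lower, against 2.4% of the 19938 genes tested as 1 value per symbol. Of all genes 1.14% were higher at that p and 3.54% differed in either direction. Tek and Emcn were named by their p in these same arrays, which favours the count of 5. The 5 were Tek, Emcn, Kdr at -0.19 (SE 0.071), the receptor for VEGF, Cldn5 at -0.23 (SE 0.088), the tight junction claudin of the blood-brain barrier, and Tie1 at -0.14 (SE 0.055), an orphan receptor related to TIE2. Cldn5 had -0.21, -0.35 and -0.30 with the combination, -0.0069, -0.043 and -0.19 with mephedrone, 0.18, 0.050 and 0.14 with ethanol, and 0.18, 0.0069 and 0.12 with saline. The combination arrays were lowest without overlap, while the ethanol and saline arrays shared a range. Slco1a4, an organic anion transporter of the barrier, was the 1 member above 0, at 0.10 (SE 0.24).

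The median of the 13 endothelial markers was -0.14, beside -0.0092 over all genes, of which 55.4% were below 0. Their mean per array was -0.026, -0.083 and -0.069 with the combination, 0.053, -0.0089 and -0.025 with mephedrone, 0.16, -0.0046 and 0.067 with ethanol, and 0.017, -0.0080 and -0.015 with saline. Ethanol replicate 1, an array that stands apart, was the highest. Without it and combination replicate 3 the median was -0.11, with 5 members lower and 1 higher at an unadjusted p under 0.05, against 2.88% and 1.59% of all genes. In bulk tissue, fewer cells of a type and less RNA per cell cannot be told apart. Markers of mural cells, which wrap the same vessels, had a median of -0.0099 over 11 members, of which 0 had an unadjusted p under 0.05 in limma, and Acta2, smooth muscle actin, at 0.15 (SE 0.0845).

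Of the genes named by their p, 2 others are known from vessels and lay on the higher side. Plxnd1, a receptor for semaphorins in vessels and axons, was at 0.39 (SE 0.110, unadjusted p = 0.00479). Its values were 0.24, 0.16 and -0.077 with the combination, -0.081, 0.013 and 0.068 with mephedrone, -0.16, -0.15 and -0.20 with ethanol, and 0.16, 0.18 and -0.013 with saline, so that the ethanol arrays lay below all others. Mcam, an adhesion molecule of vessel walls, was at 0.34 (SE 0.122, unadjusted p = 0.0165), and its p was 0.0732 without both arrays that stand apart.

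Among immune genes, C4b lay farthest above the additive value for its error. It encodes complement component 4, and the closely related C4a could share its probes. The values were 0.19, 0.20 and 0.30 with the combination, -0.0045, -0.026 and 0.012 with mephedrone, -0.19, -0.16 and -0.052 with ethanol, and 0.11, -0.0020 and 0.0020 with saline. The combination arrays were above all others and the ethanol arrays below all others, with mephedrone and saline near 0. The interaction was 0.41 (SE 0.067, 95% confidence interval 0.26 to 0.55, unadjusted p = 8.18e-05, adjusted p = 0.786 in limma), where adding the single effects gave -0.18 and the observed combination mean was 0.23 ± 0.063 (SD, n = 3). It was 0.34 without both arrays that stand apart and 0.37 to 0.45 with any 1 array left out.

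The cytokine, complement and interferon list had values on both sides of 0. Of 20 measured members 8 were above 0 and 12 below, with a median of -0.038, and at an unadjusted p under 0.05 there were 2 higher, C4b and Ifit1 at 0.12 (SE 0.045), an interferon-induced RNA sensor, and 1 lower, Oasl2 at -0.17 (SE 0.075), also induced by interferon. Over all genes 1.14% were higher and 2.4% lower. Without both arrays that stand apart 2 members were higher and 4 lower, against 1.59% and 2.88% of all genes. C1qc and C1qb, subunits of the complement starter C1q made by microglia, were at -0.18 and -0.11. Among 12 markers of microglia, which are the immune cells of brain tissue, the median was -0.0062 and limma gave 0 an unadjusted p under 0.05. Without both arrays that stand apart the microglial median was -0.037 and 2 markers were lower at that p, against 2.88% of all genes. Rfxank, a subunit of the complex that drives class II histocompatibility genes, was at 0.30 (SE 0.077, unadjusted p = 0.00228), with a mean of 0.098 ± 0.10 with the combination, -0.039 ± 0.069 with mephedrone, -0.089 ± 0.041 with ethanol and 0.076 ± 0.044 with saline.

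Pllp and Gal3st1, also named by their p, are genes of myelin. Pllp encodes plasmolipin, a membrane protein of myelin. It had 0.12, 0.058 and 0.66 with the combination, -0.056, -0.024 and -0.061 with mephedrone, -0.10, -0.077 and -0.075 with ethanol, and 0.024, 0.19 and 0.17 with saline. All combination and saline arrays lay above all mephedrone and ethanol arrays, with combination replicate 3 far above the rest. The interaction was 0.54 (SE 0.172, unadjusted p = 0.00947) in all arrays and 0.34 (unadjusted p = 0.00088) without both arrays that stand apart. Gal3st1, the sulfotransferase that makes the myelin lipid sulfatide, was at 0.35 (SE 0.108, unadjusted p = 0.00792) and at 0.23 without those arrays.

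All 13 measured oligodendrocyte markers were above 0, with a median of 0.33, and 3 of them were higher at an unadjusted p under 0.05, against 1.14% of all genes. These were Opalin at 0.46 (SE 0.170), a sialylated membrane protein of mature oligodendrocytes, Mag at 0.46 (SE 0.183), the myelin-associated glycoprotein, and Cnp at 0.32 (SE 0.140), a phosphodiesterase of myelin. Opalin had 0.0040, 0.014 and 0.46 with the combination, -0.0040, -0.22 and 0.0046 with mephedrone, -0.12, -0.082 and -0.092 with ethanol, and -0.074, 0.21 and 0.28 with saline. Combination replicate 3 was the highest array and the saline arrays overlapped with the combination arrays. The mean of the list was 0.54 in that array and lay between -0.16 and 0.16 in the other 11. Without combination replicate 3 the list median was 0.12, and without both arrays that stand apart it was 0.088. At an unadjusted p under 0.05, 3 markers were higher without both arrays, against 1.59% of all genes. Without combination replicate 3 alone 3 markers were higher, beside 338 of 28853 probe sets.

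Combination replicate 3 also had the highest level of choroid plexus markers, genes of the secretory tissue in the ventricles. The mean of that list was -0.041, 0.54 and 1.82 with the combination, 0.54, -0.17 and -0.11 with mephedrone, 0.76, -0.087 and -0.093 with ethanol, and -0.067, 1.02 and -0.10 with saline. The arrays with raised values came from all 4 groups, 5 in all, and each group overlapped with the others. All 14 measured members were above 0 in the interaction (median 0.73, and 0.40 without both arrays that stand apart). In limma 0 of them had an unadjusted p under 0.05, with standard errors of up to 1.74, that of Kcnj13, a potassium channel. Ttr, which encodes the thyroid hormone carrier transthyretin, was at 1.67 (SE 1.33). With this list mean as a covariate 1 oligodendrocyte marker was higher at an unadjusted p under 0.05 and the list median was 0.15. The part of tissue makeup in the myelin values was otherwise not tested.

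Oligodendrocyte precursors had Sox10, a transcription factor of the lineage, at 0.32 (SE 0.136, unadjusted p = 0.0358) and Bcas1, a marker of newly myelinating cells, at 0.34 (SE 0.179), with a list median of 0.077 in all arrays and 0.0002 without combination replicate 3, whose list mean was 0.25 against 0.0042 and -0.023 in the other combination arrays. Gfap, the intermediate filament of astrocytes, was at 0.65 (SE 0.282, unadjusted p = 0.0424). Its values were 0.18, 0.13 and 1.03 with the combination, 0.058, -0.11 and -0.30 with mephedrone, -0.095, -0.16 and -0.035 with ethanol, and -0.24, 0.15 and 0.035 with saline. Combination replicate 3 was again far above all other arrays, and the other 12 measured astrocyte markers had no unadjusted p under 0.05. Of the 13 markers 5 were above 0 and 8 below. Their median was -0.035 in all arrays and -0.015 without both arrays that stand apart.

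**Figure D2:**
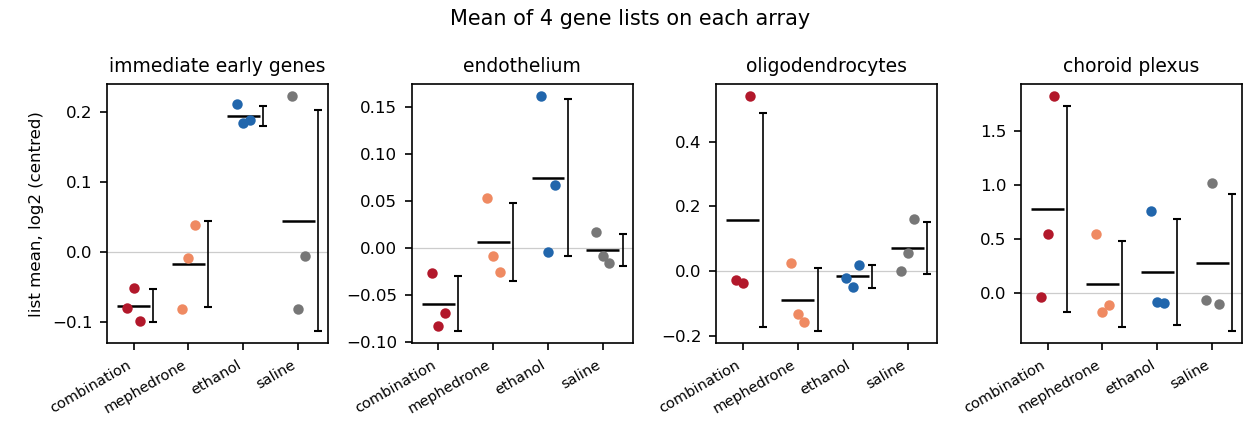
Mean of 4 gene lists on each array (log2, centred), with group means as lines and SDs as bars, for combination, mephedrone, ethanol and saline from left to right (3 arrays each). The 3 ethanol arrays and saline replicate 1 lie highest for immediate early genes, and combination replicate 3 lies far above the other arrays for oligodendrocyte and choroid plexus markers, at 0.54 and 1.82.

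Genes that neurons induce within minutes of activity, the immediate early genes, had the most members of the 37 gene lists on the lower side. This is a count, which favours long lists. Of 32 measured members 25 were below 0, beside 55.4% of all genes. At an unadjusted p under 0.05, 8 were lower and 0 higher, against 2.4% lower over all genes in limma. Shorter lists had a larger part below 0, with 8 of 8 cholinergic markers, 12 of 13 endothelial markers and 19 of 23 heat shock genes. Of the endothelial markers 5 of 13 were lower at that p. The list median was -0.22, made up of a median ethanol effect of -0.058 with mephedrone and 0.17 without it. The ethanol effect was below 0 in 24 members with mephedrone and above 0 in 24 without it.

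**Figure D3:**
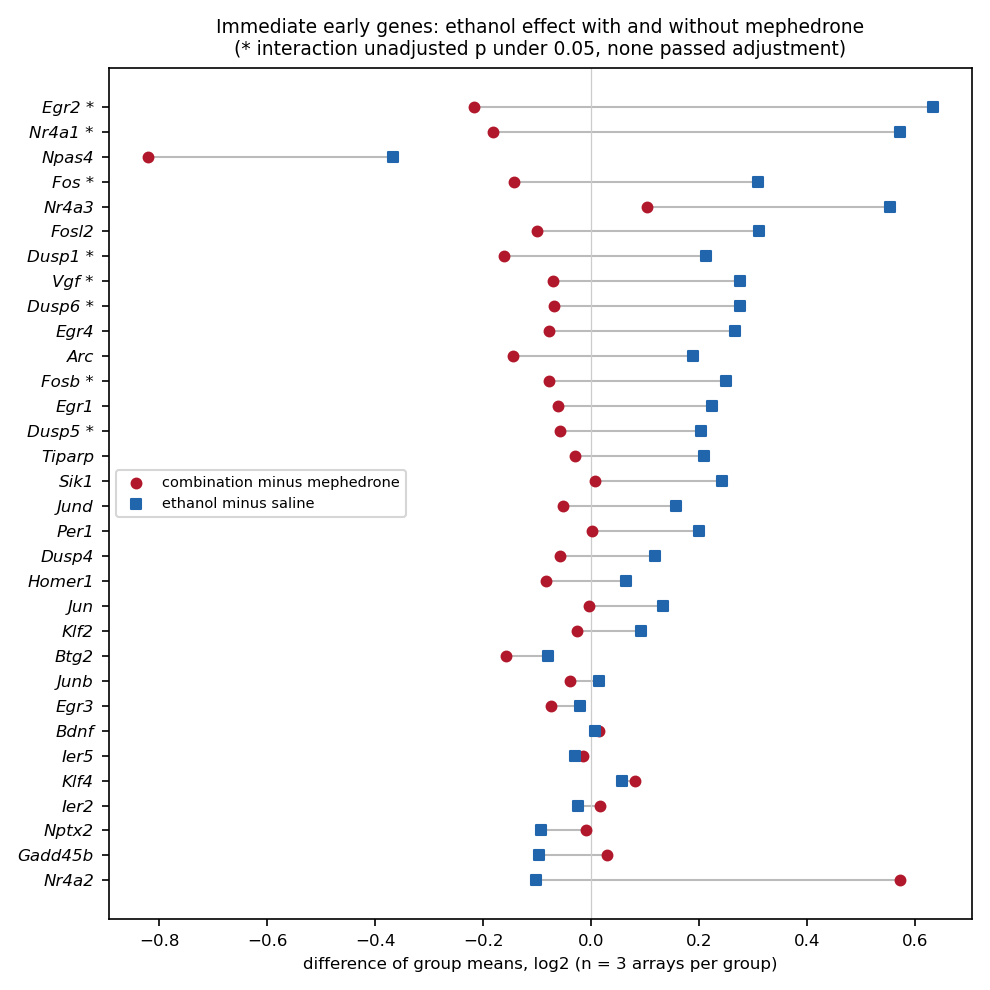
Difference of group means (log2) for the 32 measured immediate early genes, with the combination minus mephedrone as dots and ethanol minus saline as squares (3 arrays per group). Most squares lie right of 0 and most dots near or left of it, Npas4 has both values below 0, and Nr4a2 runs the other way at 0.57 and -0.10.

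Dusp6, a phosphatase that switches off the kinase ERK and is induced by it, had the smallest p of the list. It had -0.13, -0.00020 and -0.019 with the combination, -0.016, -0.013 and 0.092 with mephedrone, 0.32, 0.33 and 0.27 with ethanol, and 0.15, -0.062 and 0.00020 with saline. The ethanol arrays lay above all 9 others, which overlapped. The interaction was -0.35 (SE 0.080, 95% confidence interval -0.52 to -0.17, unadjusted p = 0.00119) in all arrays and -0.36 without both arrays that stand apart. Dusp5, a nuclear phosphatase of ERK, was at -0.26 (SE 0.097) and Dusp1, which acts on several MAP kinases, at -0.37 (SE 0.170, unadjusted p = 0.0499).

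Among the transcription factors of the list, Egr2 and Nr4a1 had the lowest values. Egr2, a zinc finger factor, had -0.0038, -0.0072 and -0.42 with the combination, -0.038, -0.0038 and 0.26 with mephedrone, 0.87, 0.95 and 0.95 with ethanol, and 0.89, -0.017 and 0.0038 with saline. Saline replicate 1 lay at the level of the ethanol arrays and the other 2 saline arrays at that of mephedrone, so ethanol and saline overlapped. The interaction was -0.85 (SE 0.289, 95% confidence interval -1.48 to -0.22, unadjusted p = 0.0129). Nr4a1, an orphan nuclear receptor, had -0.15, -0.11 and -0.66 with the combination, -0.30, -0.24 and 0.16 with mephedrone, 0.67, 0.88 and 1.00 with ethanol, and 0.83, -0.071 and 0.071 with saline. It showed the same high saline array, and its interaction was -0.75 (SE 0.316, unadjusted p = 0.0352). Fos, the AP-1 subunit widely used as an activity marker, was at -0.45 (SE 0.147), its relative Fosb at -0.33 (SE 0.123) and the secreted neuropeptide precursor Vgf at -0.35 (SE 0.153).

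The members that did not reach an unadjusted p of 0.05 included Fosl2 at -0.41 (SE 0.205), Arc, a regulator of AMPA receptor uptake, at -0.33 (SE 0.24) and Npas4, a neuronal factor that responds to calcium, at -0.45 (SE 0.3065). Npas4 was the member with the lowest ethanol effect with mephedrone, at -0.82, and it was also below 0 without mephedrone, at -0.37. Nr4a2, a nuclear receptor that dopamine neurons need, was at 0.68 (SE 0.542), with 1.63 in combination replicate 3 and 0.072 and 0.38 in the other combination arrays. Bdnf, a neurotrophin, was at 0.0074 (SE 0.0673).

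The mean of the 32 genes per array was -0.080, -0.051 and -0.098 with the combination, -0.081, -0.0087 and 0.039 with mephedrone, 0.21, 0.18 and 0.19 with ethanol, and 0.22, -0.081 and -0.0062 with saline. The ethanol arrays and saline replicate 1 were high and the other 8 arrays low. The number of members lower at an unadjusted p under 0.05 was 18 without saline replicate 1, 5 without combination replicate 3, 4 without mephedrone replicate 3, saline replicate 2 or saline replicate 3, and 7 to 9 without any 1 of the others. Over all probe sets the lower count was 884 without saline replicate 1 and 552 without combination replicate 3, beside 634 in all arrays. It was 568, 514 and 619 without mephedrone replicate 3, saline replicate 2 and saline replicate 3. Without both arrays that stand apart 4 members were lower (Fos, Egr2, Dusp1 and Dusp6), against 2.88% of all genes, and the list median was -0.16. What set saline replicate 1 apart was not tested.

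Many immediate early genes are driven through the cyclic AMP response element, the site of the factor CREB, whose letters TGACGTCA read the same on both strands. The 250 bases before the gene start were searched in RefSeq promoters of build GRCm38.p6, of which 24 belonged to the 32 genes. The element was found in 2 of the 24 (8.33%), beside 439 of 27025 promoters in all (1.62%). These 2 are too few to set against that share. The pattern TGANTCA, which allows any base at N and so is wider than the AP-1 site, was in 0 of the 24. It was in 6.87% of all promoters. The E-box CACGTG was in 5 of the 24 (20.8%) and in 6.05% of all, with both strands searched. A match describes the letters and is not a site shown to be used.

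Both promoters with the full element are shown 5′ to 3′ with it in capitals, as the 2 of the list that hold it. Dusp1 is on the minus strand at chr17:26508473-26508722, with the element starting at base -143, and Btg2, which encodes an antiproliferative factor, is on the minus strand at chr1:134079156-134079405, with the element starting at base -166.
Dusp1: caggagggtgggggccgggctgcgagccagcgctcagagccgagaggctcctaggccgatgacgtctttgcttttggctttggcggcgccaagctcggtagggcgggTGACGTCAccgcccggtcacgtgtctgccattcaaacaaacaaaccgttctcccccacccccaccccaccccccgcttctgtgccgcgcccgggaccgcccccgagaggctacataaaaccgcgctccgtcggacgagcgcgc
Btg2: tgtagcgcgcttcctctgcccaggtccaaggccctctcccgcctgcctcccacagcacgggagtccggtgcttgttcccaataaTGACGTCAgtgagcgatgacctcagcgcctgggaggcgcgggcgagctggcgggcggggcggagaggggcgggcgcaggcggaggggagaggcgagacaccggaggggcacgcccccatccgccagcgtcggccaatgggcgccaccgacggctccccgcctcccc
Dusp1 was at -0.37, with -0.19, -0.14 and -0.11 in the combination, -0.068, -0.11 and 0.22 with mephedrone, 0.20, 0.52 and 0.33 with ethanol, and 0.40, -0.058 and 0.058 with saline. Btg2 was at -0.077 (SE 0.132, unadjusted p = 0.569). Full elements in this window were thus found beside a gene at the threshold and beside a gene far from it.

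Dopamine receptors and monoamine genes, the proteins closest to the action of mephedrone, held 1 lower member of 15 at an unadjusted p under 0.05. Over all genes 2.4% were lower, and 1 member is too few to set against that share. The member was Drd3, the D3 receptor named in the study's title. Drd3 had -0.00060, 0.00060 and -1.05 with the combination, 0.052, -0.31 and 0.25 with mephedrone, 0.34, 0.092 and 0.14 with ethanol, and -0.054, -0.39 and -0.59 with saline. Combination replicate 3 was the lowest array by far, the ethanol arrays lay above the saline arrays, and the combination and saline arrays overlapped. The interaction was -0.88 (SE 0.355, 95% confidence interval -1.66 to -0.10, unadjusted p = 0.0301, adjusted p = 0.9999 in limma). It was -0.46 (unadjusted p = 0.0696) without both arrays that stand apart, and between -1.05 and -0.53 with any 1 array left out. D3 receptors are concentrated in the ventral striatum and islands of Calleja, and where within the anterior striata each sample was cut is not given in the sources used here.

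The main dopamine receptors lay nearer to 0, Drd1 at -0.19 (SE 0.158) and Drd2 at -0.12 (SE 0.152), each with combination replicate 3 lowest at -0.43 and -0.42. Slc6a3 and Slc6a4, the dopamine and serotonin transporters that mephedrone acts on, were at 0.0029 (SE 0.0929) and -0.012 (SE 0.0644), and Slc18a2, the vesicular monoamine transporter, at -0.23 (SE 0.120, unadjusted p = 0.0822). Their own transcripts are made mainly in midbrain and brainstem cells, whose terminals reach the striatum. Downstream of the receptors, 15 of 19 genes of striatal dopamine and cyclic AMP signalling were below 0 (median -0.063, but 0.0094 without combination replicate 3, where the list mean was -0.21 against -0.0004 and 0.025 in the other combination arrays) and 0 had an unadjusted p under 0.05 in limma. They included Rgs2, a G protein regulator, at -0.40 (SE 0.226) and Creb1, which encodes CREB, at -0.081 (SE 0.055).

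Of the 13 serotonin receptors 2 were lower at an unadjusted p under 0.05, against 2.4% of all genes, Htr6 at -0.22 (SE 0.080) and Htr1b at -0.32 (SE 0.144), with a list median of -0.060 that was -0.0125 without ethanol replicate 1. Htr6, a receptor that raises cyclic AMP in striatal neurons, had -0.11, -0.14 and -0.26 with the combination, 0.0043, -0.095 and 0.038 with mephedrone, 0.028, 0.041 and -0.0043 with ethanol, and 0.017, -0.16 and 0.0063 with saline. The combination arrays lay lowest except for 1 saline array. Without both arrays that stand apart 0 of the 13 had an unadjusted p under 0.05 in limma.

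The receptors that ethanol acts on gave few values away from 0. Of 10 measured GABA-A subunits limma gave 0 an unadjusted p under 0.05, and the smallest p were those of Gabrb1 at -0.23 (SE 0.105, unadjusted p = 0.0501) and Gabrb2 at 0.091 (SE 0.0566). Among 15 ionotropic glutamate receptor genes 1 did, Gria2 at -0.16 (SE 0.059, unadjusted p = 0.0220), the subunit that makes AMPA receptors impermeable to calcium, and Gria1 was at -0.13 (SE 0.0702). Gria2 had -0.025, 0.065 and -0.087 with the combination, 0.13, 0.095 and 0.058 with mephedrone, 0.015, -0.016 and 0.0078 with ethanol, and -0.077, -0.0078 and -0.046 with saline, so that combination and mephedrone overlapped. The median was -0.060 for the GABA-A subunits and -0.080 for the glutamate receptors in all arrays, and 0.019 and -0.0145 without both arrays that stand apart. The NMDA subunit Grin2b was at -0.080 (SE 0.0556). Enzymes of alcohol, aldehyde and acetate metabolism had a median of 0.0425 over 16 members, which was 0.0063 without combination replicate 3. In limma 0 of these had an unadjusted p under 0.05. They included Cat, the catalase that oxidises ethanol in brain, at 0.18 (SE 0.151), Aldh1a1, a retinaldehyde dehydrogenase, at 0.27 (SE 0.229) and Aldh2, the mitochondrial acetaldehyde dehydrogenase, at -0.011 (SE 0.102).

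Striatal neuropeptides held Trh, the thyrotropin-releasing hormone precursor, at 0.32 (SE 0.1435, unadjusted p = 0.0475) and Cartpt, a peptide precursor regulated by stimulants, at -0.40 (SE 0.181, unadjusted p = 0.0481), with 19 members at a median of -0.092 in all arrays and -0.0295 without both arrays that stand apart. Pdyn, the dynorphin precursor of direct pathway neurons, was at -0.20 (SE 0.114), and Penk, the enkephalin precursor of indirect pathway neurons, at -0.094 (SE 0.0807). Markers of projection neurons were mostly below 0, 11 of 13 pan-striatal (median -0.089), 7 of 8 direct pathway (-0.19) and 6 of 7 indirect pathway markers (-0.094). Combination replicate 3 and ethanol replicate 1 were the lowest arrays for all 3 lists, at -0.23 and -0.12 for the pan-striatal markers against -0.020 to 0.049 in the others. At an unadjusted p under 0.05 there was 1 member in all, Sfxn1, a mitochondrial serine transporter, at -0.20 (SE 0.077). Without both arrays the medians were -0.071, -0.078 and -0.091, and 2 pan-striatal markers (Rarb and Rasd2), 1 direct pathway marker (Drd1) and 2 indirect pathway markers (Gpr6 and Gpr52) were lower at an unadjusted p under 0.05, against 2.88% of all genes. Without combination replicate 3 alone the 3 medians were 0.0087, -0.058 and -0.024.

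Cholinergic interneurons, the tonically active cells that shape dopamine release, had all 8 measured markers below 0, with a median of -0.21 in all arrays and -0.077 without both arrays that stand apart. Of these Zic4, a developmental zinc finger factor, was at -0.19 (SE 0.0566, unadjusted p = 0.00555) and Slc17a8, the vesicular glutamate transporter VGLUT3, at -0.28 (SE 0.126, unadjusted p = 0.0465). The enzyme that makes acetylcholine, Chat, was at -0.081 (SE 0.170). The mean of the list was 0.13, -0.055 and -0.32 with the combination, -0.0089, -0.052 and 0.0080 with mephedrone, 0.086, 0.16 and 0.048 with ethanol, and 0.13, -0.18 and -0.083 with saline, and the combination arrays reached from near the top to below all others. Among other interneuron markers, Kit, a receptor tyrosine kinase, was at 0.20 (SE 0.0913) and Lhx6, a factor of interneurons from the medial ganglionic eminence, at -0.21 (SE 0.118).

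Heat shock and protein folding genes were mostly below 0, 19 of 23, with a median of -0.11 in all arrays and without both arrays that stand apart. Lower members at an unadjusted p under 0.05 numbered 3, against 2.4% of all genes, and were Hsph1 at -0.20 (SE 0.062, unadjusted p = 0.00760), a nucleotide exchange factor for HSP70, Hspb1 at -0.31 (SE 0.126), a small heat shock protein, and Creld2 at -0.28 (SE 0.115), a protein induced by stress of the endoplasmic reticulum. Hspb1 had -0.12, -0.18 and -0.034 with the combination, -0.090, 0.034 and -0.087 with mephedrone, 0.44, 0.30 and 0.12 with ethanol, and 0.19, 0.060 and -0.13 with saline. Combination and mephedrone overlapped and ethanol overlapped with saline. The number of lower members was 8 without saline replicate 1, and 1 without mephedrone replicate 2, ethanol replicate 1 or saline replicate 3. It was 2 to 5 without any 1 of the others. Over all probe sets 884 were lower without saline replicate 1 and 966 without ethanol replicate 1, beside 634 in all arrays. That count was 560 without mephedrone replicate 2 and 619 without saline replicate 3.

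The cold-inducible RNA-binding proteins Rbm3 and Cirbp, which the cell makes more of at lower temperature, were at 0.23 each (SE 0.097 and 0.108, unadjusted p = 0.0347 and 0.0543). Rbm3 had 0.22, 0.30 and 0.36 with the combination, 0.11, 0.082 and 0.068 with mephedrone, -0.067, -0.37 and -0.24 with ethanol, and -0.28, -0.13 and -0.19 with saline. The combination arrays lay above the mephedrone arrays, and the ethanol and saline arrays overlapped below both. The ethanol effect was 0.21 with mephedrone and -0.027 without it. The splicing factor Srsf5 was at 0.0013 (SE 0.111).

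Clock genes had a median of -0.029 over 18 members. Arntl, which encodes the activator BMAL1, was at -0.22 (SE 0.099, unadjusted p = 0.0481), and Ciart, a repressor of that activator, was at 0.26 (SE 0.118, unadjusted p = 0.0534). The ethanol effects of Ciart were 0.21 with mephedrone and -0.048 without it, while its mephedrone effects were 0.87 with ethanol and 0.62 without it. The mephedrone effects of Arntl were -0.57 with ethanol and -0.35 without it. For both genes the interaction was smaller than either mephedrone effect. At an unadjusted p under 0.05, 1 of 18 members was lower, which is too few to set against the 2.4% of all genes.

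The remaining pathway lists had medians between -0.0029 and 0.072 in all arrays. Respiratory chain subunits had a median of 0.011 over 36 members, and Ndufs1, the largest subunit of complex I, was the 1 at an unadjusted p under 0.05, at 0.15 (SE 0.064). Its combination values of 0.22, 0.21 and 0.23 lay above every other array. Cytosolic ribosomal proteins had a median of 0.0068 over 31 members, with 1 higher and 1 lower at that p. These were Rplp0, a stalk protein, at 0.21 (SE 0.066) and Rps19, of the small subunit, at -0.22 (SE 0.083). Over all genes 1.14% were higher and 2.4% lower, and such single members are too few to set against these shares. Without both arrays that stand apart the ribosomal median was 0.062, with 4 members higher and 0 lower, against 1.59% and 2.88% of all genes. Without ethanol replicate 1 alone it was 0.060, with 6 members higher and 0 lower, beside 538 and 966 of 28853 probe sets. Sterol and fatty acid synthesis (median 0.072 over 19), antioxidant genes (0.014 over 23), glucocorticoid-responsive genes (-0.0029 over 16) and synaptic vesicle release (0.056 over 17) had 0 members at an unadjusted p under 0.05 in limma. Without combination replicate 3 the median was -0.0129 for sterol and fatty acid synthesis and 0.0033 for vesicle release. The members of these lists with the smallest p were Srebf1, a sterol and fatty acid regulator, at 0.18 and Lss, lanosterol synthase, at 0.18, then Gpx4, a lipid peroxidase, at 0.14 and Mt2, a metallothionein, at -0.12. Sult1a1, a phenol sulfotransferase, was at -0.18, Map3k6, a stress kinase, at 0.097, Syt2, a calcium sensor of fast release, at 0.17 and Unc13a, a vesicle priming factor, at -0.057.

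Among markers of neighbouring tissue, ependymal cells had Ak7, the adenylate kinase of motile cilia, at 0.36 (SE 0.121) and Hdc, histidine decarboxylase, at 0.14 (SE 0.0594), in a list of 11 with a median of 0.061. Ak7 had 0.11, 0.27 and 0.24 with the combination, 0.052, -0.25 and -0.11 with mephedrone, -0.0021, -0.21 and -0.14 with ethanol, and 0.0021, 0.015 and -0.20 with saline, and the combination arrays lay above all others. Cortical excitatory markers had a median of 0.12 over 14, with Emx1 at -0.11 and Fezf2 at 0.23. Dropping both arrays that stand apart gave a median of 0.043, and dropping combination replicate 3 alone gave -0.041; the list mean was 0.65 in that array against -0.084 and 0.0069 in the other combination arrays. Hypothalamic and ventral forebrain markers had a median of -0.067 over 16 (-0.0063 without both arrays that stand apart), with Peg10 at -0.95 (SE 0.4725), and thalamic markers 0.063 over 11, with Plekhg1 at 0.29 and Prkcd at -0.68. Meningeal markers had a median of 0.032 over 11, with Igf2 at 0.68 and Ogn at 0.35, pituitary markers -0.0043 over 8, with Fshb at 0.057 and Tshb at -0.043, and red blood cell markers -0.0485 over 2, Alas2 at -0.11 and Slc4a1 at 0.011. Apart from the ependymal genes and Trh limma gave these lists 0 members at an unadjusted p under 0.05, and that of Peg10 was 0.0696.

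**Figure D4:**
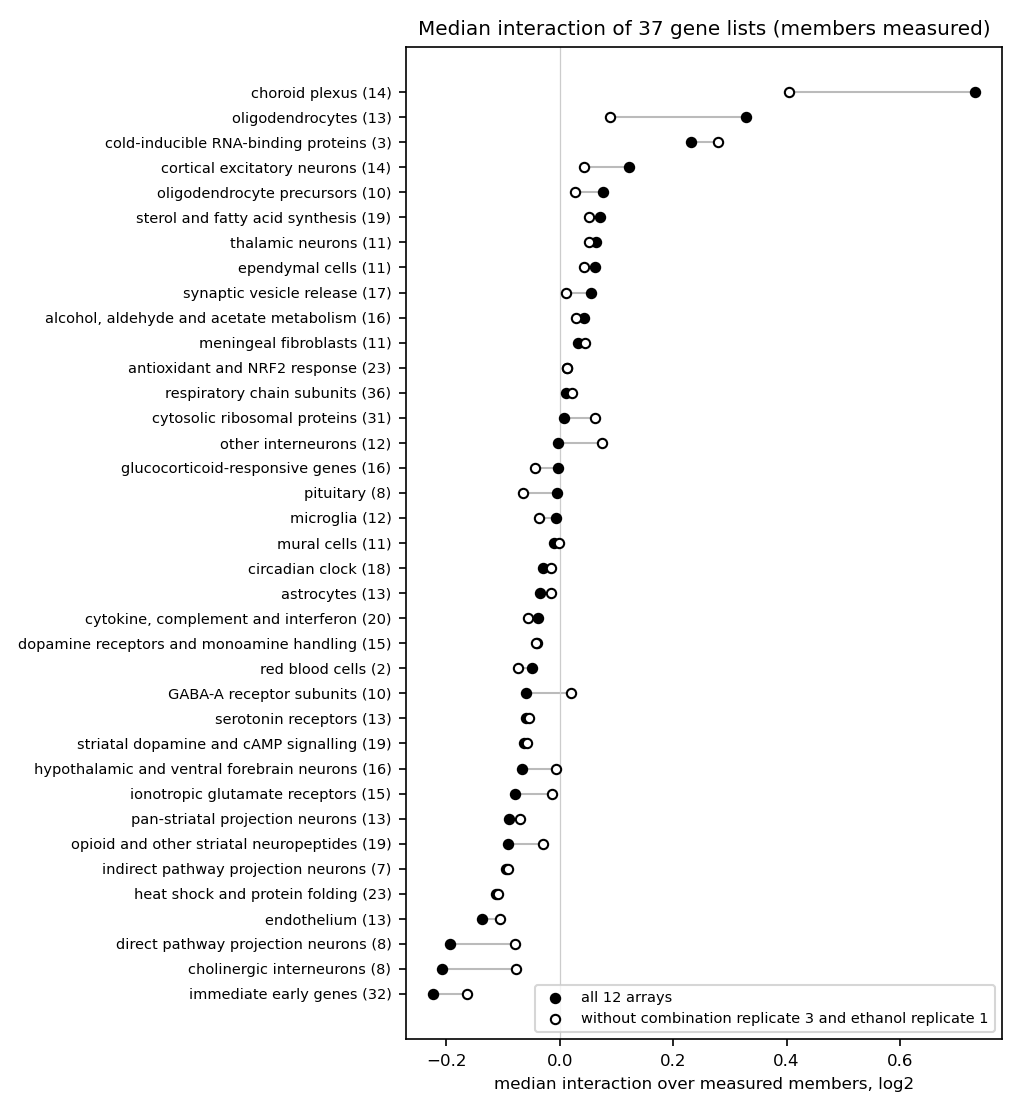
Median interaction (log2) of the measured members of 37 gene lists, with the number measured in brackets, in all 12 arrays (filled) and without combination replicate 3 and ethanol replicate 1 (open). Immediate early genes lie lowest at -0.22 and -0.16, endothelium lies at -0.14 and -0.11, and the choroid plexus and oligodendrocyte medians move toward 0, to 0.40 and 0.088.

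Some genes named by their p belonged to none of the groups above. Ocel1, which encodes an occludin and ELL domain protein, had -0.30, -0.068 and -0.32 with the combination, -0.019, 0.042 and 0.063 with mephedrone, 0.26, 0.17 and 0.22 with ethanol, and 0.019, -0.35 and -0.11 with saline. The ethanol arrays were above all others and combination and saline overlapped, and the interaction was -0.62 (SE 0.125, unadjusted p = 0.00041). Pde9a, a cyclic GMP phosphodiesterase, was at -0.33 (SE 0.088), L3hypdh, a hydroxyproline dehydratase, at -0.31 (SE 0.076) and Arhgap4 at -0.34 (SE 0.099), each with ethanol means of 0.14 to 0.19 and group means of at most 0.039 elsewhere. Slc6a16, an orphan transporter, was at -0.40 (SE 0.118), with mephedrone highest at 0.13 ± 0.036 (SD).

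In Nfu1 and Tsen15 the saline arrays were the ones that differed. Nfu1, which delivers iron-sulfur clusters in mitochondria, had 0.42, 0.064 and -0.0070 with the combination, 0.29, 0.25 and 0.26 with mephedrone, 0.0070, -0.19 and -0.25 with ethanol, and -0.52, -0.51 and -0.54 with saline. Saline lay below all other arrays, and the interaction was -0.48 (SE 0.137, unadjusted p = 0.00456), with the mephedrone effect 0.31 with ethanol and 0.79 without it. A second probe set of Nfu1 was at -0.013 (unadjusted p = 0.913), so the probe sets of the gene disagree. Tsen15, a subunit of the tRNA splicing endonuclease, was at -0.33 (SE 0.095) with its saline mean at -0.23 ± 0.030 (SD), and at -0.095 (unadjusted p = 0.252) on a second probe set. On the higher side Cspg4b was at 0.39 (SE 0.116), St6galnac3, a ganglioside sialyltransferase, at 0.32 (SE 0.113) and Fbxo32, a muscle ubiquitin ligase, at 0.30 (SE 0.108). In the RefSeq annotation C4b and Pde9a lie on chromosome 17, Tek on chromosome 4, Dusp6 on chromosome 10, and Rfxank, Ocel1 and Pllp on chromosome 8.

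For all 20 genes named by their p the ethanol effect had opposite signs with and without mephedrone. The observed combination means lay between 0.071 and 0.28 in the 10 higher genes, where the additive values were -0.28 to -0.11, and between -0.23 and 0.16 in the 10 lower genes, where they were 0.17 to 0.64. Each of the 20 had an unadjusted p under 0.05 with any 1 array left out, and Mcam (0.0732) and Fbxo32 (0.0856) exceeded it without both arrays that stand apart. With 1 value per symbol Nfu1 was at -0.25 (unadjusted p = 0.0552 in limma). The genes were chosen by p and size in these same arrays. The choice itself favours the opposite signs, the gaps from the additive values and the small p with 1 array left out.

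**Figure D5:**
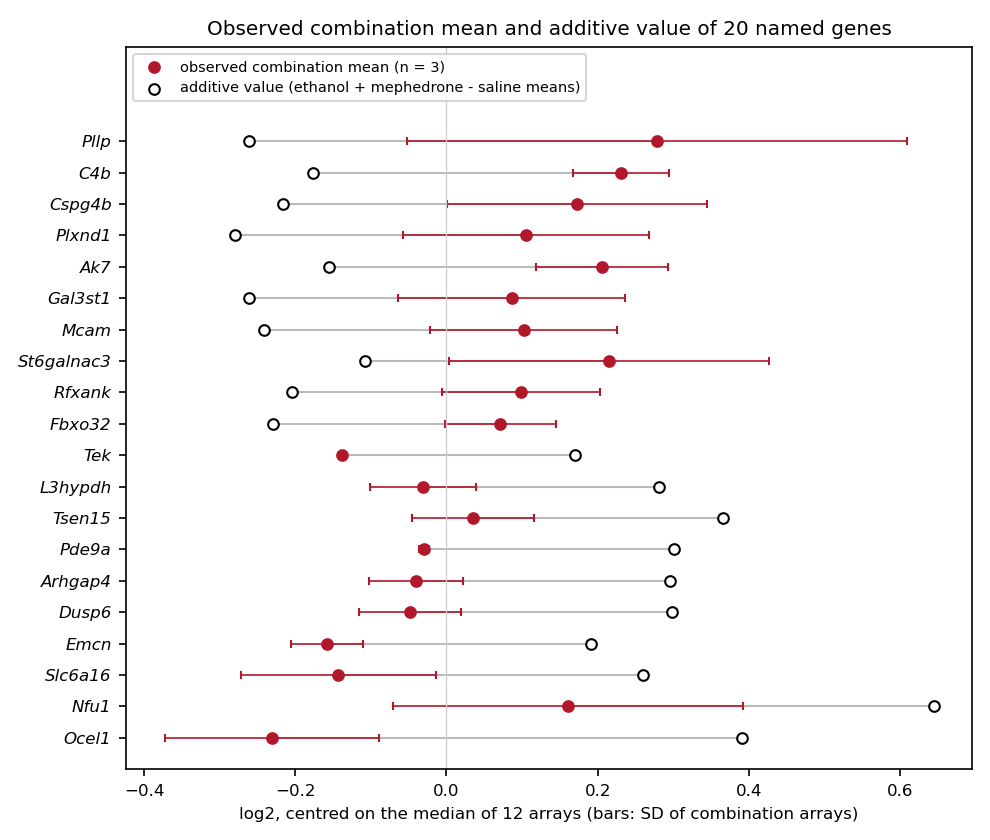
Observed combination mean (filled, with the SD of 3 arrays) and the additive value, ethanol plus mephedrone minus saline means (open), for the 20 genes named by their p (log2, centred). The largest gaps are those of Ocel1 at -0.62 and Pllp at 0.54, and the SD bar of Pllp is the widest because of combination replicate 3.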

How the data were processed

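RNA abundance was measured on 12 arrays in 4 groups of 3. The deposited table holds log2 values made by the authors with RMA, which corrects background, normalises by quantiles and summarises probes, and mm8 is the genome build, both per the submitters' processing notes; the series design text names GeneSpring GX for normalisation. Each of 28853 probe sets is centred on its median over the arrays, which no source used here states and which was checked on the table, so levels and signal over background are not in it. The platform annotation gave 1 symbol to 21789 probe sets, several to 1621, and 5443 were not listed there.

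The 4 group means were estimated from the 12 arrays in limma 3.58.1 (lmFit, eBayes, R 4.3.3), with 8 residual and 3.11 prior degrees of freedom. The interaction was tested two-sided, and p-values were adjusted by Benjamini-Hochberg over all probe sets. Gene lists used 1 value per symbol (19938 genes, the mean of its probe sets). The script was tested on simulated data.

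Named genes are, per direction, the 10 with the smallest unadjusted p among probe sets with 1 symbol and at least 0.3 in size, since none passed; small RNAs, receptor families and unnamed transcripts were left out. In reaching them 12 higher and 7 lower probe sets were passed over, 9 and 6 of them without a single symbol. Drd3 and, per list, the 2 members with the smallest p are also given. The contrast, the lists and the alternatives were chosen with earlier results of these data known. Of 18 pairs of arrays with the same replicate number, 6 correlated over 0.1, so the numbers were not taken as pairs.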

Additional observations from a re-analysis of the deposited data

How the results depend on the processing

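No probe set passed the adjusted test in any of the 20 alternatives, where the smallest adjusted p was 0.459. The 20 genes named by their p gave 394 values over the alternatives, all in the direction reported. They were chosen by p and size in these same arrays, so the choice itself favours that agreement, which is no independent check. The counts at an unadjusted p under 0.05 were 357 higher and 634 lower of 28853 probe sets (1.24% and 2.2%). They moved to 595 and 938 with array quality weights. Quantile normalisation of the centred values gave 520 and 498, which evens the split. This step gives all arrays the same distribution of deviations from the probe set medians. It differs from the normalisation of signal levels within RMA. Over fewer features, 1 value per symbol gave 227 and 478 of 19938 genes (1.14% and 2.4%). The 13425 probe sets whose numeric step places them at 8 or above gave 189 and 333. With any 1 array left out the counts over all probe sets lay between 255 and 556 higher and between 514 and 966 lower. There were 556 higher without combination replicate 2, and 538 higher and 966 lower without ethanol replicate 1. With a replicate block, whose numbers pair nothing the labels state, there were 338 and 751 and 0 adjusted calls. The 8 lower immediate early genes became 4 with quantile normalisation, 5 with the choroid plexus covariate then 4 when both arrays standing apart were dropped, and 4 to 18 with any 1 array left out. The 5 lower endothelial markers became 3 among the probe sets at 8 or above, and 3 to 6 with any 1 array left out, with 3 without combination replicate 2 or mephedrone replicate 2. The 3 higher oligodendrocyte markers became 1 with the choroid plexus covariate and 1 to 8 with any 1 array left out, with 7 without combination replicate 1, 8 without combination replicate 2 and 1 without mephedrone replicate 2 or 3, ethanol replicate 2 or saline replicate 3. Without both arrays that stand apart the oligodendrocyte count was 3. The causes were not tested. The 3 arrays per group and the missing signal levels limit the precision.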

Other observations

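Lsm4, Rfxank and Ocel1 lie on the same stretch of mouse chromosome 8 in the RefSeq annotation. Between Rfxank and Ocel1, both included, 41 genes with a probe set of a single symbol were measured, and 8 had an unadjusted p under 0.05 in the interaction (19.5%, against 3.43% of all probe sets). They were Rfxank at 0.30, Kxd1 at 0.13, Fkbp8 at 0.17, Lsm4 at 0.29 and Mpv17l2 at 0.16 on the higher side, and Tmem161a at -0.16, Crtc1 at -0.18 and Ocel1 at -0.62 on the lower side. The stretch was chosen after these values were seen and its ends are 2 of the 8, so the share is a description and was not tested.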
